A study of Canis lupus familiaris with 3 samples.

Results

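The genes of heterotrimeric G protein and cAMP signalling were read from a comparison of MDCK cells transfected with E47 and MDCK-CMV control cells. The set was chosen with earlier results of these data known, and its genes were matched by the stems of their symbols. The stems covered G protein subunits, RGS proteins, a set of G protein-coupled receptors, receptor kinases and arrestins. They also covered adenylyl cyclases, phosphodiesterases, protein kinase A subunits and AKAP anchoring proteins. The rule matched 86 genes by a single symbol, and 77 of these had a value on all 3 arrays, out of 5508 named genes that did. The other 9, and 3 rows that carry several symbols, are given at the end. MDCK is an epithelial cell line from dog kidney, and E47 is a transcription factor, a product of the TCF3 gene, that binds E-box sequences in DNA. The tested cells are MDCK-E47 transfectants, labelled E47_1 and E47_2, and their reference is the MDCK-CMV line. Both were grown in the same serum-containing medium. Whether the transfectants are clones or pools, and how E47 is driven in them, is not stated in the labels.

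A heterotrimeric G protein consists of an alpha, a beta and a gamma subunit, and an activated receptor makes the alpha subunit exchange GDP for GTP. Alpha subunits then stimulate or inhibit adenylyl cyclases or activate phospholipase C beta, among other effectors, while RGS proteins speed up GTP hydrolysis and end the signal. Cyclic AMP, made by adenylyl cyclases and degraded by phosphodiesterases, releases the catalytic subunits of protein kinase A (PKA) from the regulatory subunits, and AKAPs hold the kinase at its sites. In kidney epithelia cAMP is known as a regulator of water and ion transport.

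Each value is a log2 ratio of the 2 channels of an array of human cDNA clones, averaged over the spots of a gene, so no expression level can be read from it. Extraction 1 was hybridised once, with E47 RNA in Cy5, and extraction 2 as a dye swap, with the E47 RNA in Cy3 on one array and in Cy5 on the other. Array values below are given in the order extraction 1, extraction 2 in Cy3, extraction 2 in Cy5. Between 24771 and 25537 of 27648 spots had a value per array, and pairs of arrays correlated with r between 0.58 and 0.76 over all spots. The direction of the ratios is not stated. They are read as E47 over control, which is likely from the channel order the labels give and from CDH1, the E-cadherin gene, at −3.52, −3.83 and −3.47. TCF3, the gene of the transfected factor, did not stand above 0, at −0.27, −0.28 and −0.35. Whether its 2 clones bind the transfected sequence is not known, so E47 cells below are cells so labelled. With the direction turned, every gene called higher would be lower. The logarithm is read as base 2, which is not stated either, and the folds would be larger with the natural logarithm. Of the epithelial markers, 7 of 7 measured fell at an adjusted p under 0.05 in limma's moderated test, against 3.85% of all named genes. Their mean log2 ratios ran from −3.59 to −0.92. CDH1, the lowest of them, also served to read the direction, so its fall is no separate result. The others were KRT19, EPCAM, DSP, CLDN1, KRT8 and CLDN4. Of the mesenchymal markers 6 of 8 rose, against 5.34% of all named genes, in a list spanning −0.11 to 2.85. Those that did not pass were CDH2 at 0.02 and ACTA2 at −0.11. The part of these markers in the values below was not tested. Fewer cells with a transcript cannot be told apart from less transcript per cell. No source states that the extractions came from separate cultures, so the p-values do not measure a spread between cultures. They rest on the spread of a gene between 2 RNA extractions, which limma combines with the spread over all features. Of the 3.71 degrees of freedom, 2.71 come from all features. Extraction 1 was measured in 1 dye orientation and extraction 2 in both, so a dye effect can enter that spread.

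Of the 77 genes, 5 rose and 2 fell in E47 cells, and 70 did not pass limma's moderated test at an adjusted p under 0.05. The 7 that passed are 9.09% of the set, against 9.19% of all named genes, so the set as a whole held calls at the background share. For genes that rose the background was 5.34%, and for genes that fell it was 3.85%. No role held more than 25 measured genes, so the counts by role below are descriptions, to be read beside these shares. The 5 that rose were GNG11, ADGRL2, GNAI1, GNA13 and ADORA2B, and the 2 that fell were RGS2 and ADGRG6. The median log2 ratio was 0.04 for the set and −0.02 for all named genes, and the median absolute value was 0.23 for the set and 0.20 for all named genes. On every array 28 of the 77 were above 0 (30.6% of all named genes were) and 23 below 0 (32.8% of all named genes), together 66.2% of the set, against 63.3% of all named genes. A mean change of at least 2-fold was seen in 4 of the 77 (5.19%), against 4.76% of all named genes, and all 4 had passed the test. At an unadjusted p under 0.05 the set held 29 genes, 37.7%, against a background of 35.6%.

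**Figure D1:**
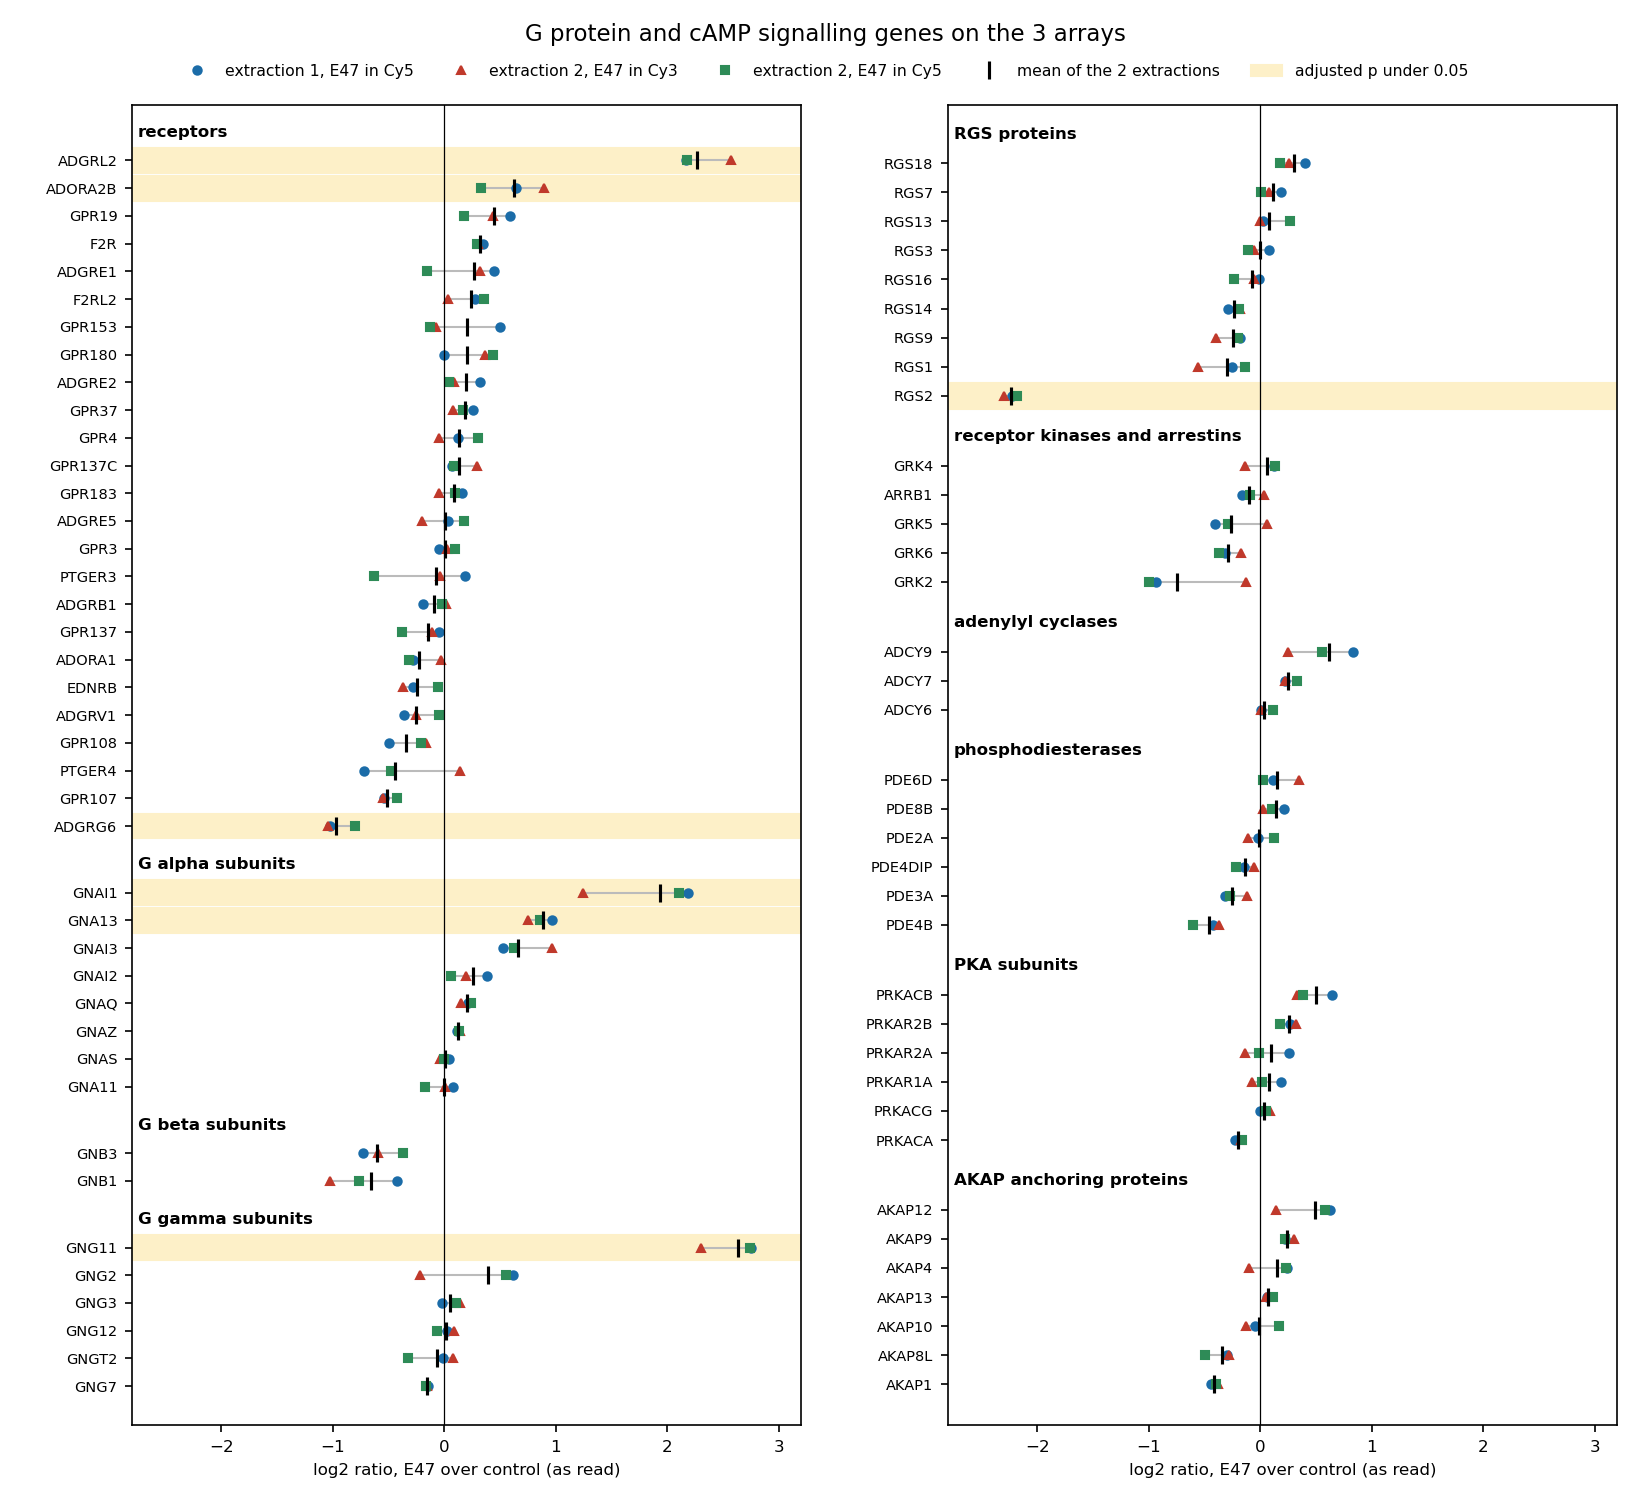
Log2 ratio (x axis, E47 over control as read) of each of the 77 genes by role, with 1 marker per array, a black bar at the mean of the 2 extractions and a grey line from the lowest to the highest array. Shaded rows passed the test. GNG11, ADGRL2 and GNAI1 stand farthest to the right and RGS2 farthest to the left, and 63 of the 70 genes that did not pass have a mean within 0.5 of 0.

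Among the G alpha subunits 2 of 8 rose (25%, against 5.34% of all named genes) and none fell. GNAI1, the inhibitory alpha subunit that lowers adenylyl cyclase activity, had log2 ratios of 2.19, 1.24 and 2.10. All arrays were far above 0, with the Cy3 array lowest. Its mean was 1.93 ± 0.16 (moderated SE, n = 2 extractions), which is 3.82-fold, with an adjusted p of 0.0214. GNA13, an alpha subunit of another class, gave 0.97, 0.75 and 0.86. These values lay close together, with a mean of 0.89 ± 0.09 (moderated SE, n = 2), or 1.85-fold, and an adjusted p of 0.0283. Both genes lost their call when extraction 2 was represented by its Cy3 array alone, GNAI1 at an adjusted p of 0.0744 and GNA13 at 0.0698.

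GNAI3, a further inhibitory alpha subunit, was the gene nearest to the threshold from outside. It gave 0.53, 0.97 and 0.63, above 0 on every array, with a mean of 0.66 and an adjusted p of 0.0537, while ADORA2B, nearest from inside, had 0.0395. GNAI2, the third inhibitory subunit of this group, had a mean of 0.26, with arrays at 0.39, 0.19 and 0.06. The cDNAs of inhibitory alpha subunits are similar in sequence, and human clones on dog RNA may not separate them. GNAQ and GNA11, which activate phospholipase C beta, were at 0.21 and −0.0012. GNAZ, an inhibitory subunit resistant to pertussis toxin, was at 0.13. GNAS encodes the stimulatory subunit that activates adenylyl cyclase. Its mean over 8 spots was 0.01, with a 95% interval of the moderated fit from −0.23 to 0.25 and array values of 0.041, −0.040 and −0.0027.

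In the gamma subunits, which anchor the beta-gamma dimer to the membrane through a lipid group, 1 of 6 rose. That is 16.7%, against 5.34% of all named genes. GNG11 had log2 ratios of 2.75, 2.31 and 2.74, the highest mean of the set. All 4 of its spots, from 1 clone printed at 2 positions, lay between 2.12 and 3.06 on every array. The mean was 2.64 ± 0.10 (moderated SE, n = 2), which is 6.22-fold, with an adjusted p of 0.0194. None of the other gamma subunits came near it. GNG2 was at 0.40, but its arrays read 0.62, −0.22 and 0.56, with the Cy3 array on the other side of 0. GNG3 was at 0.05, GNG12 at 0.02, the cone photoreceptor gamma subunit GNGT2 at −0.07 and GNG7 at −0.15. The widest 95% interval among these 5 was that of GNG2, from −0.02 to 0.81.

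Both measured G beta subunits were below 0 on all arrays without passing. GNB1 gave −0.42, −1.03 and −0.77, with a mean of −0.66 and an adjusted p of 0.0862. GNB3 gave −0.72, −0.60 and −0.37, with a mean of −0.60 and an adjusted p of 0.0584. GNB3 passed with the arrays scaled to a common spread, where 7.93% of all named genes passed. Both passed when the 3 arrays were taken as 3 replicates. That fit counts the dye swap arrays, which share 1 RNA, as separate replicates. In it 18.3% of all named genes passed, against 9.19% in the main fit.

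**Figure D2:**
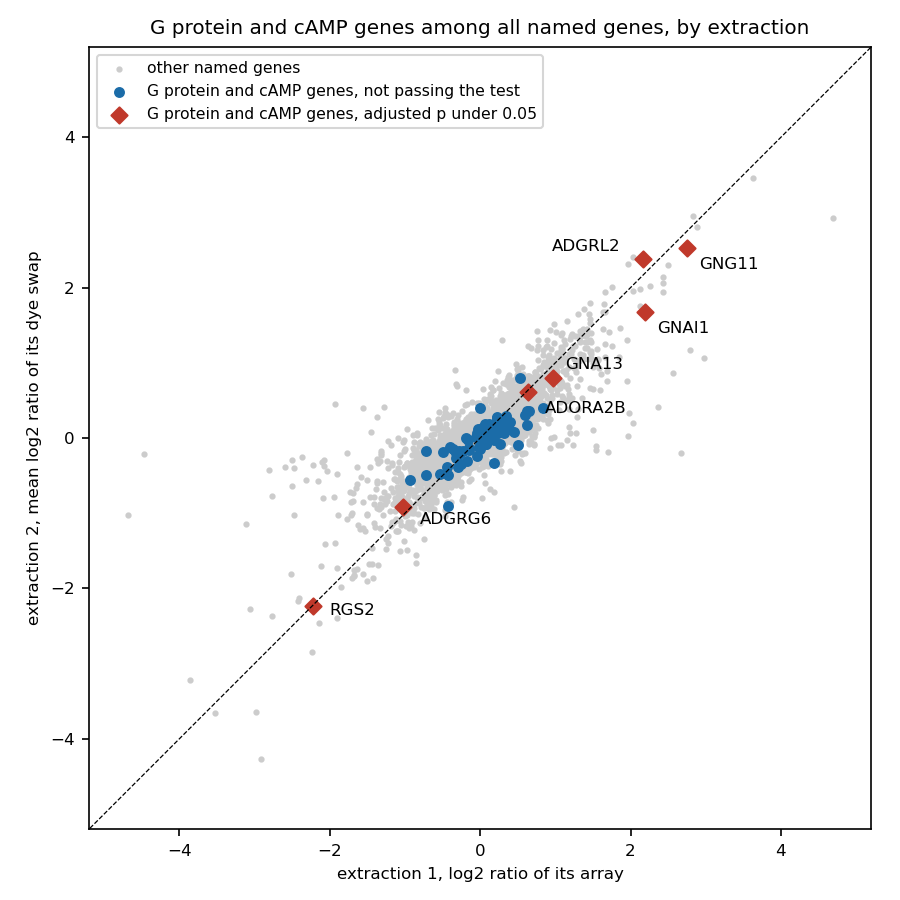
Log2 ratio of extraction 1 (x axis, 1 array) against the mean of the dye swap of extraction 2 (y axis) for all named genes in grey, the 70 genes of the set that did not pass in blue and the 7 that passed in red. The dashed line marks equal values. RGS2, ADGRG6, ADORA2B and GNA13 lie close to the line, and GNAI1 lies below it at 2.19 against 1.67.

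Of 25 receptors measured, 2 rose and 1 fell (12%, against 9.19% of all named genes). ADGRL2, latrophilin-2, an adhesion G protein-coupled receptor, had log2 ratios of 2.17, 2.57 and 2.18. Its duplicate spots lay between 2.07 and 2.58 over the arrays. The mean was 2.27 ± 0.10 (moderated SE, n = 2), or 4.83-fold, with an adjusted p of 0.0194. ADGRG6, another adhesion receptor, known from mouse and zebrafish for its part in myelination by Schwann cells through cAMP, gave −1.03, −1.04 and −0.80. Its mean was −0.97 ± 0.09 (moderated SE, n = 2), 1.96-fold lower in E47 cells (adjusted p = 0.0243). Its 2 clones had means of −0.65 and −1.13, below 0 on every array. Tested clone by clone by limma, a fit chosen after the values were seen, the first did not pass (adjusted p = 0.0869). The second did, at 0.0190. With the Cy3 array alone for extraction 2 the adjusted p of ADGRG6 as a gene was 0.0509.

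ADORA2B, an adenosine receptor that couples to the stimulatory G protein, gave 0.64, 0.89 and 0.33. All arrays were above 0, but the arrays of the dye swap, which share 1 RNA, differed by 0.56 on the log2 scale. The mean was 0.63 ± 0.08 (moderated SE, n = 2), 1.54-fold, with an adjusted p of 0.0395. The average of the dye swap, 0.61, lay next to 0.64 in extraction 1, an SD between extractions of 0.02. The SE is larger because limma draws it toward the spread of all features. It does not hold the gap between the dye swap arrays of this gene. On the lower array its duplicate spots read 0.54 and 0.12. ADORA2B lost its call with either array of extraction 2 alone, at 0.0883 with Cy3 and 0.0716 with Cy5, and with scaled arrays, at 0.0546. It was the least stable of the 7 calls, and GNG11, ADGRL2 and RGS2 passed in all 9 alternative fits.

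Receptors that did not pass spanned −0.51 to 0.45. GPR107, a multi-span membrane protein, gave −0.54, −0.55 and −0.42, with an adjusted p of 0.0555. The adenosine receptor ADORA1, which couples to inhibitory G proteins, was at −0.23, on the other side of 0 from ADORA2B. The thrombin receptor F2R was at 0.32 and F2RL2, another protease-activated receptor, at 0.24, both above 0 on every array. The endothelin receptor EDNRB was at −0.24, with −0.28, −0.37 and −0.06. Prostaglandin E2 receptors were unsettled between arrays. PTGER4, measured by 1 spot, gave −0.72, 0.14 and −0.47, and PTGER3 gave 0.18, −0.04 and −0.63. Duplicate spots of a PTGER3 clone read 0.12 and −1.85 on the last array. The spot at 0.12 lacked a Cy3 value and was left out, so that clone enters the gene value through the other spot alone. Of the leukocyte adhesion receptors, ADGRE1, ADGRE2 and ADGRE5 were at 0.27, 0.19 and 0.01. ADGRV1 and ADGRB1, also of the adhesion family, were at −0.25 and −0.09. The remaining receptors with a GPR symbol ran from GPR19 at 0.45 through GPR153, GPR180, GPR37, GPR4, GPR137C, GPR183 and GPR3 to GPR137 at −0.15 and GPR108 at −0.34. GPR153 was above 0 on extraction 1 alone, at 0.50, against −0.07 and −0.12 on the other arrays.

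RGS2 was the lowest gene of the set and the 1 of 9 RGS proteins that passed (11.1%, against 9.19% of all named genes). It preferentially ends signalling by the alpha subunits of the GNAQ class. Its log2 ratios were −2.23, −2.29 and −2.18, within 0.11 of each other. The mean was −2.23 ± 0.08 (moderated SE, n = 2), 4.70-fold lower in E47 cells (adjusted p = 0.0194). Its clone was printed at 2 positions, whose means were −2.17 and −2.25. None of the other RGS genes passed. RGS1, RGS9 and RGS14 were below 0 on every array, with means of −0.30, −0.24 and −0.24, as was RGS16 at −0.08. RGS18, known from blood cells, was at 0.31, RGS7 at 0.11, RGS13 at 0.08 and RGS3 at −0.00022. The 95% intervals of these 4 reached no further than 0.58 above 0.

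No receptor kinase and no arrestin passed. GRK2, which phosphorylates active receptors, had the lowest mean among them, with −0.931, −0.131 and −0.996 on the 3 arrays, a mean of −0.75 and an adjusted p of 0.0576. That mean joins 2 positions of the same clone that disagree. At the first position the pair of spots gave 0.05, 0.07 and 0.01. At the second it gave −1.91, −0.33 and −2.01. The position means, 0.05 and −1.54, differ by 1.59 on the log2 scale, while the median gap between positions of 1 clone was 0.13 over 16 such clones of the set and 0.14 over 867 clones of all named genes. A gap above 1 was found in 1 of the 16 (6.25%) and in 24 of the 867 (2.77%). GRK2 therefore has no settled ratio on these arrays. The other kinases and the arrestin were at −0.29 for GRK6, −0.26 for GRK5, −0.10 for ARRB1 and 0.06 for GRK4, of which GRK6 alone kept its sign on all arrays.

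All 3 measured adenylyl cyclases were above 0 on every array, as were 30.6% of all named genes, and none passed. ADCY9 gave 0.83, 0.25 and 0.55, with a mean of 0.62 and an adjusted p of 0.0871. ADCY7 was at 0.25, with its 2 clones at 0.19 and 0.30. ADCY6 was at 0.04, with arrays at 0.009, 0.008 and 0.12 and an interval from −0.21 to 0.28. On extraction 1 and on the Cy3 array its duplicate spots lay on opposite sides of 0, so its sign is not settled.

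Phosphodiesterases were not called either. PDE4B, which degrades cAMP, had the lowest mean, −0.46, with −0.42, −0.37 and −0.61 on the arrays and an adjusted p of 0.0656. Its 2 clones parted. One gave −1.02, −0.86 and −1.21, a mean of −1.03, and the other 0.17, 0.13 and −0.0016, a mean of 0.11. Tested clone by clone over the whole table, a fit chosen after the clone values were seen, the first clone of PDE4B had an adjusted p of 0.0206 and the second 0.404. PDE3A, which also degrades cAMP, was at −0.26 and PDE2A at −0.01. PDE8B was at 0.14, but its duplicate spots on extraction 1 opposed each other, at 1.18 and −0.75. Matched by their symbols were also 2 genes that are no cyclic nucleotide hydrolases of cAMP signalling by themselves: PDE6D, a chaperone of prenylated proteins, at 0.15, and PDE4DIP, myomegalin, a scaffold protein, at −0.14.

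PKA subunits did not pass as genes. The catalytic subunit gene PRKACB gave 0.65, 0.33 and 0.39, with a mean of 0.50 and an adjusted p of 0.0850. It was measured by 3 clones. The first and second had means of 0.70 and 0.86 with their lowest arrays at 0.42 and 0.66, whereas the third had a mean of 0.0034 and arrays between −0.21 and 0.17. In the clone-by-clone fit the second passed, at an adjusted p of 0.0405, and the first did not, at 0.0721. PRKACA, the other main catalytic subunit, was at −0.20 and below 0 on all arrays. Among the regulatory subunits PRKAR2B was at 0.26, PRKAR2A at 0.09 and PRKAR1A, the mean of 4 clones between −0.08 and 0.22, at 0.08. PRKACG was at 0.04. Its symbol is 1 of the 2 of the set, with PDE4DIP, that the dog gene table does not hold, so which dog transcript its clone bound is not known.

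Of 7 AKAP anchoring proteins none passed, against 9.19% of all named genes. AKAP12, a plasma membrane scaffold of PKA, gave 0.63, 0.14 and 0.58, with a mean of 0.49 and an adjusted p of 0.0825. AKAP1, the mitochondrial anchor, gave −0.44, −0.38 and −0.40, with a mean of −0.42 and an adjusted p of 0.0741. AKAP8L was at −0.34 and below 0 on all arrays, and AKAP9, a centrosomal and Golgi anchor, was at 0.24 and above 0 on all arrays. AKAP4, AKAP13 and AKAP10 were at 0.15, 0.07 and −0.02. AKAP13 joined a clone at 0.52 with clones at −0.20 and −0.11.

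Disagreement between clones recurred across the set. Of its 77 genes 16 were measured by several clones, and in 9 of them (56.3%) clones lay on opposite sides of 0, against 399 of 1037 (38.5%) among all named genes. A range above 1 on the log2 scale was found in 2 of the 16 (12.5%), against 92 of the 1037 (8.87%). Those 2 were PDE4B and ADGRV1. For ADGRV1 one clone had a mean of −1.09, from 1 spot, with −1.28, −1.20 and −0.58, and the other a mean of 0.16, so its gene mean of −0.25 describes neither. In the clone-by-clone fit the first of these had an adjusted p of 0.0323. In the other 7 genes the clones on opposite sides lay nearer to 0. The clones of GPR180 had means of 0.51 and −0.11, those of PTGER3 0.06 and −0.35, those of GNG12 0.18 and −0.07, and those of RGS13 0.21 and −0.05. The −0.35 of PTGER3 and the 0.18 of GNG12 each rest on 1 spot. The spots of that GNG12 clone left out for lack of a Cy3 value lay between −0.27 and 0.02 on extraction 1. Their opposite sides are therefore not settled for GNG12. The 3 clones of GNAS lay between −0.07 and 0.13, and AKAP13 and PRKAR1A are described above. The clones of GNAI1 were at 1.48 and 2.16, with their lowest arrays at 0.84 and 1.45 and adjusted p-values of 0.0551 and 0.0172. When clones were tested singly, 10 of the 77 genes had at least 1 clone that passed (11.8% of all named genes did), the 7 above with PRKACB, PDE4B and ADGRV1.

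**Figure D3:**
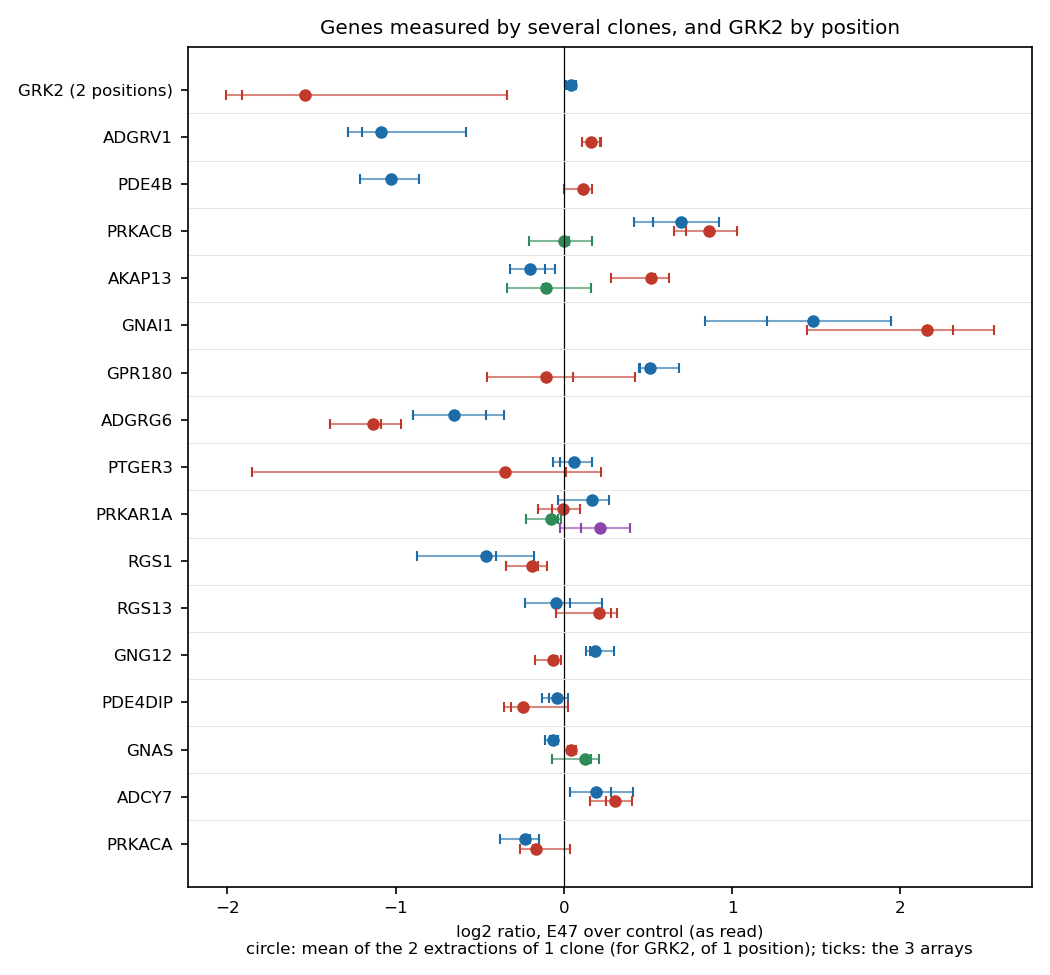
Log2 ratio (x axis) of each clone for the 16 genes with several clones, ordered by the range between clone means, with GRK2 at the top split into the 2 printing positions of its clone. Circles are means of the 2 extractions and ticks the 3 arrays. GRK2, ADGRV1 and PDE4B each join a value near 0 to a value below −1.

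The dye swap of extraction 2 measured 1 RNA pair in both orientations. Its arrays differed by more than 0.5 on the log2 scale in 6 of the 77 genes (7.79%), against 7.68% of all named genes. These were GRK2, GNAI1, GNG2, PTGER4, PTGER3 and ADORA2B. In GRK2, GNAI1, GNG2 and PTGER4 the Cy5 array of extraction 2 lay near extraction 1, which also had E47 in Cy5, and the Cy3 array stood apart. For GNG2 and PTGER4 it stood on the other side of 0. Extraction 1 has no dye swap, so a dye effect in its value cannot be told apart from the difference between the extractions. With the Cy5 array alone for extraction 2, 13 genes of the set passed (8 higher, 5 lower), among them GNG2, PTGER4, GRK2, AKAP12 and ADCY9, against 16.7% of all named genes. With the Cy3 array alone 3 passed, GNG11, ADGRL2 and RGS2, against 1.98% of all named genes.

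**Figure D4:**
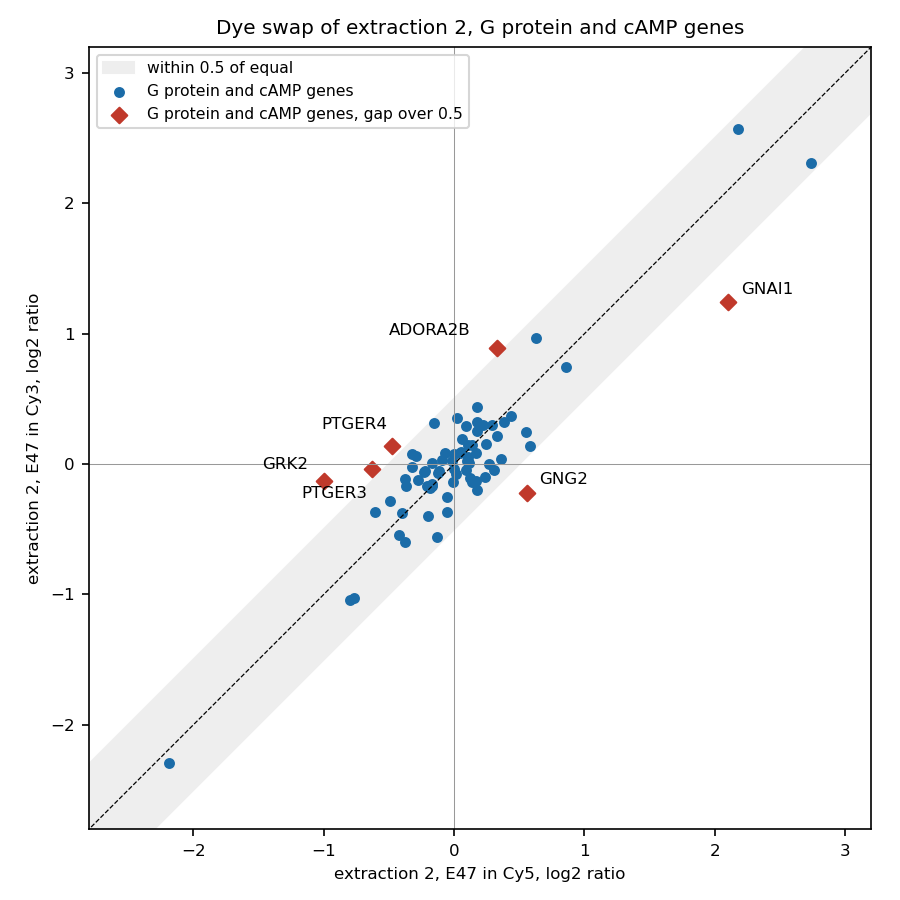
Log2 ratio of the 77 genes on the array of extraction 2 with E47 in Cy5 (x axis) and on the array with E47 in Cy3 (y axis). The grey band holds genes whose arrays differ by at most 0.5, and the 6 genes outside it are named. RGS2, GNG11 and ADGRL2 lie inside the band at the ends of the range.

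Further genes of the pathway were taken from lists that the rule does not cover. Of 41 other G protein-coupled receptors measured, 2 rose and none fell (4.88%, against 9.19% of all named genes), with a list median of −0.07. Both were subunits of the GABA-B receptor, which works as a dimer and couples to inhibitory G proteins. GABBR2 gave 2.13, 2.08 and 1.43, with a mean of 1.94 ± 0.13 (moderated SE, n = 2) and an adjusted p of 0.0197. GABBR1 gave 0.90, 1.11 and 0.74, with a mean of 0.91 ± 0.08 and an adjusted p of 0.0246. GABBR2 passed in all alternative fits, and GABBR1 had an adjusted p of 0.0572 with the Cy3 array alone for extraction 2.

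Among 19 genes downstream of cAMP, namely the PKA inhibitor PKIA, CREB and related factors with their coactivators, the Rap1 GTPases with RAP1GAP, and known cAMP-induced genes, 3 fell and none rose. These are 15.8% of the list, against 9.19% of all named genes called in either direction and 3.85% called lower, and the list median was −0.13. DUSP1, a MAP kinase phosphatase that cAMP is known to induce, gave −1.44, −1.46 and −1.47. The arrays nearly coincided, with a mean of −1.45 ± 0.08 (moderated SE, n = 2) and an adjusted p of 0.0194. FOS, an immediate early transcription factor, was at −0.87 and PCK1, a gluconeogenic enzyme, at −0.84, with adjusted p-values of 0.0429 and 0.0335. The clones of FOS were at −0.41 and −1.33. With the Cy3 array alone for extraction 2, FOS and PCK1 were at adjusted p-values of 0.116 and 0.108. These 3 genes also respond to pathways other than cAMP. Other cAMP-induced genes of the list did not pass, with NR4A3 at −0.11, PER1 at −0.10, NR4A2 at −0.07 and PPARGC1A at 0.12. NR4A1 was at −0.37, with arrays at −0.49, 0.005 and −0.49, and did not pass either. CREB1 and CREBBP, the factor and its coactivator, were at −0.12 and −0.28 without passing. Of the genes above 0, CREB5, a CREB-related factor, was at 0.53 (adjusted p = 0.0605), the GTPase gene RAP1B at 0.41 (adjusted p = 0.0800), and FOSB, a relative of FOS, at 0.32 (adjusted p = 0.106). All 3 were above 0 on every array, and none passed. PKIA, an inhibitor of the PKA catalytic subunit, had a mean of −0.93 and an adjusted p of 0.135, with arrays at −1.47, 0.04 and −0.81.

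In the branch of phospholipase C, calcium and protein kinase C, of 15 genes 1 rose and 1 fell (13.3%, against 9.19% of all named genes), and the list median was −0.21. PRKD3, a protein kinase D, was at 0.81 with its 4 clones between 0.55 and 0.97, and an adjusted p of 0.0341. CAMK2D, a calmodulin-dependent kinase, was at −0.69 with an adjusted p of 0.0393, from 1 spot, since its other 5 lacked a value on an array. With the Cy3 array alone for extraction 2 PRKD3 had an adjusted p of 0.0688 and CAMK2D 0.120, and CAMK2D had 0.0615 with scaled arrays. ITPR1, an IP3 receptor, had a mean of 0.87 and an adjusted p of 0.0854. Of 8 genes from a list of further G protein regulators, limma called none at an adjusted p under 0.05, and 4 had an unadjusted p under 0.05, as had 35.6% of all named genes. The highest was PDCL, a phosducin-like chaperone of beta-gamma dimers, at 0.54, and the lowest NUCB2 at −0.42.

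The 9 genes of the rule without a spot measured on all arrays were not tested. ADGRB2, GRK3 and RGS6 lacked the Cy3 array and lay between 0.02 and 0.25 on the others. ADRA2A and AKAP3 lacked the Cy5 array of extraction 2, and were at −0.20 and −0.12 on extraction 1 and at 0.14 and 0.21 on the Cy3 array. ADGRL3, a relative of ADGRL2, lacked extraction 1 and gave −0.20 and 0.28. GPR161 and PDE5A had values on the Cy3 array alone, −0.15 and −0.0057. PRKAR1B gave −0.15 on the Cy3 array and −1.43 on the Cy5 array of extraction 2, so that its dye swap disagreed. Of the rows with several symbols, the one annotated to AKAP17A and ASMT was below 0 on all arrays, at −1.65, −0.68 and −0.40, and cannot be given to either gene. The rows of ADGRF4 and GPR199P with their partner symbols lay between −0.38 and 0.33.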

How the data were processed

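The authors deposited 1 log ratio per spot and array, read here as log2, and the base of the logarithm, its direction, and how background and dyes were corrected are not stated in the labels. Amplified RNA of E47 and control cells was labelled with opposite dyes, per the labels. Symbols come from the platform annotation, and 75 of the 77 match a dog gene of RefSeq assembly UU_Cfam_GSD_1.0. Human clones can bind related dog transcripts. Spots that lacked a value on any of the 3 arrays were left out, and the other 23275 were averaged per gene, and spots without a single symbol were kept as 8500 unnamed features. The dye swap was averaged, which leaves 2 replicates. Whether each of the 14008 features differed from 0 was tested in R 4.3.3 by limma 3.58.1 (lmFit, then eBayes). Benjamini-Hochberg adjustment ran over all features. The control RNA is a common reference, so its own spread is left out. Intervals (95%) use the moderated SE. The procedure was first run on data simulated from its own fitted spread, with independent errors and no dye effect. That run checks the computation and cannot show how the test fares with the dye effects of these arrays. Signal over background is unknown here, and the number of arrays limits precision.

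The set, the further lists and the tests were chosen with earlier results of these data known. Every gene that passed is named, with the largest mean in each role without one, the genes nearest to the threshold, and of each further list the genes that passed. The other genes of the further lists that are named were chosen after their values were seen. Sequences of clones, promoters and proteins were not used here. Figures were drawn with matplotlib 3.10.9.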

Additional observations from a re-analysis of the deposited data

How the results depend on the processing

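The number of genes that passed (7, with 5 higher and 2 lower) depended on the arrays and on the features tested. It was 3 (2 higher, 1 lower) with the Cy3 array alone for extraction 2 and 13 (8 higher, 5 lower) with the Cy5 array alone, where the median log2 ratio of the set was 0.063. With the 3 arrays taken as 3 replicates it was 14, with 7 lower, where 18.3% of all named genes passed. With the named genes tested alone it was 17, with 9 higher and 8 lower, where 21.3% of all named genes passed. That share was 9.19% in the main fit, 1.98% with the Cy3 array alone and 16.7% with the Cy5 array alone. Across these fits the count in the set rose and fell with the share of all named genes. Scaled arrays went the other way, with 8 genes (4 higher, 4 lower) at a smaller share, 7.93% of all named genes. Clones tested one by one, an alternative chosen after seeing the data, gave 10 genes (6 higher, 4 lower). In that fit 11.8% of all named genes passed in either direction. At an adjusted p under 0.1 there were 19 (10 higher, 9 lower), against 22.6% of all named genes. Under 0.01 there were 0 in either direction, as among all named genes. At an unadjusted p under 0.05 there were 29, against 35.6% of all named genes. With the sign turned, 2 would be higher and 5 lower, and single genes would only change sign. Median centring, the median over spots, spots lacking an array and robust eBayes each left the same 7 genes called. Without 1 of the extractions no test is possible, since both arrays of extraction 2 hold 1 RNA, and the median of the set was then between 0.010 and 0.041. Read as natural logarithms, 7 genes in place of 4 had a mean of at least 2-fold. None of the 7 changed direction under the other alternatives. The causes were not tested. Each ratio already pairs E47 RNA with control RNA on 1 array, and there is no second group of arrays to compare.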
